A study of Mus musculus with 48 samples.

Results

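The transcripts examined here are those whose change over the first 6 h differed between a line with wild-type C/EBPα-ER and a line with the empty vector, both given the inducing drug. The comparison takes the change from 0 h to 6 h in cells with the wild-type fusion (WT) and subtracts the change from 0 h to 6 h in cells with the empty vector. It rests on 12 of the 48 arrays of the series: vector at 0 h, vector at 6 h, WT at 0 h and WT at 6 h, with 3 arrays in each group. All groups are 32D-BCR/ABL cells, mouse myeloid progenitor-like cells that carry the p210 BCR/ABL oncoprotein of chronic myeloid leukemia. They were transduced with the MigRI retrovirus, either empty or with the coding sequence for WT C/EBPα-ER, and both lines received 4-hydroxytamoxifen (4-HT). One transduced line per construct is described, so the fusion and the line that carries it cannot be told apart. No untreated culture at 6 h is among the samples, and it is not stated which of the repeated experiments a replicate number stands for. The p-values therefore measure only the spread between arrays of a group, which was estimated over all 48 arrays of the series.

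C/EBPα is a leucine-zipper transcription factor that granulocyte progenitors need in order to mature, and BCR/ABL-expressing progenitors are known to have little of its protein. In the fusion it is joined to an estrogen receptor segment that binds hormone, so that the protein waits inactive in the cell until 4-HT frees it. Maturing granulocytes are known to make granule proteins, complement, Fc and chemokine receptors and the parts of the phagocyte oxidase, while transcription factors of early progenitors such as GATA-2 are shut off.

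Values are MAS5 signals of Affymetrix probe sets, analysed as log2(signal + 3), so changes of dim transcripts are understated. The relative change is the log2 change in WT minus the log2 change in vector, given with the standard error of the model. A probe set passed the threshold at an adjusted p under 0.05 in limma's moderated test, adjusted over all 45037 non-control probe sets. A gene stands for its brightest probe set, and 18193 genes were counted in this way. The median signal of the 12 arrays lay between 12 and 17, and the actin 3'/5' ratio between 1.19 and 1.48, with the highest value on replicate 1 of WT at 6 h. On the first principal component, which held 49.5% of the variance, the WT 6 h arrays lay at 29.7 to 35.0 and the vector 6 h arrays at 3.76 to 4.23. The 0 h arrays of both lines lay at -20.7 to -14.6. Esr1, part of whose sequence the fusion carries, read 12 to 25 on the 6 vector arrays and 2228 to 2607 on the 6 WT arrays, and its relative change did not pass (0.01 ± 0.34, adjusted p = 1).

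At 6 h, 1118 probe sets passed the threshold, 2.48% of those tested, of which 603 were higher and 515 lower in WT than the vector change would give. Counted as genes, 368 were higher (2.02% of 18193) and 319 lower (1.75%). Of the 8286 genes with a mean signal of 50 or more in at least 1 of the 4 groups, 363 were higher and 309 lower. Among the 368 and 319 called genes, 116 were at least 2-fold higher and 83 at least 2-fold lower, and the median size of the relative change was 0.74. Of the 368 higher genes, 260 had every WT 6 h array above the 9 other arrays, and of the 319 lower genes, 258 had every WT 6 h array below them. Over all 18193 genes those shares were 4.51% and 6.31%. The relative change depends on where an array is centred: its median over all probe sets was -0.05 as deposited, -0.01 with quantile normalization and 0.10 when each array was centred on its median. With median centring 408 probe sets passed, 326 higher and 82 lower, so 79.9% of the calls were higher against 53.9% as deposited. Without replicate 2 of every group 485 probe sets passed, and without replicate 3 of every group 564. Leaving out any single array left 906 to 1011.

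The calls were divided by the line that moved. Taken by itself, the change in WT passed the threshold for 3843 genes (21.1%) and the change in vector for 2294 (12.6%). In WT 1579 of these rose and 2264 fell, and in vector 945 rose and 1349 fell. Of the 368 genes that were higher, 194 had changed past the threshold only in WT, 55 in both lines in opposite directions, 42 in both in the same direction, 70 only in vector and 7 in neither. Of the 319 lower genes, 209 had changed only in WT, 14 in opposite directions, 74 in the same direction, 15 only in vector and 7 in neither. In the 70 higher genes that moved in vector only, the median vector change was -0.63 and the median WT change 0.07. These are mostly genes that fell in vector cells while their WT signal stayed near its starting level. With median centring 40 genes were of this kind, without replicate 2 of every group 28 and without replicate 3 of every group 37. On the lower side, the 15 genes became 9 without replicate 1 of vector at 0 h or replicate 1 of vector at 6 h, and 8 without replicate 2 of WT at 0 h. They became 2 with median centring, 3 without replicate 2 of every group and 6 without replicate 3 of every group, and 28 with array weights.

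**Figure D1:**
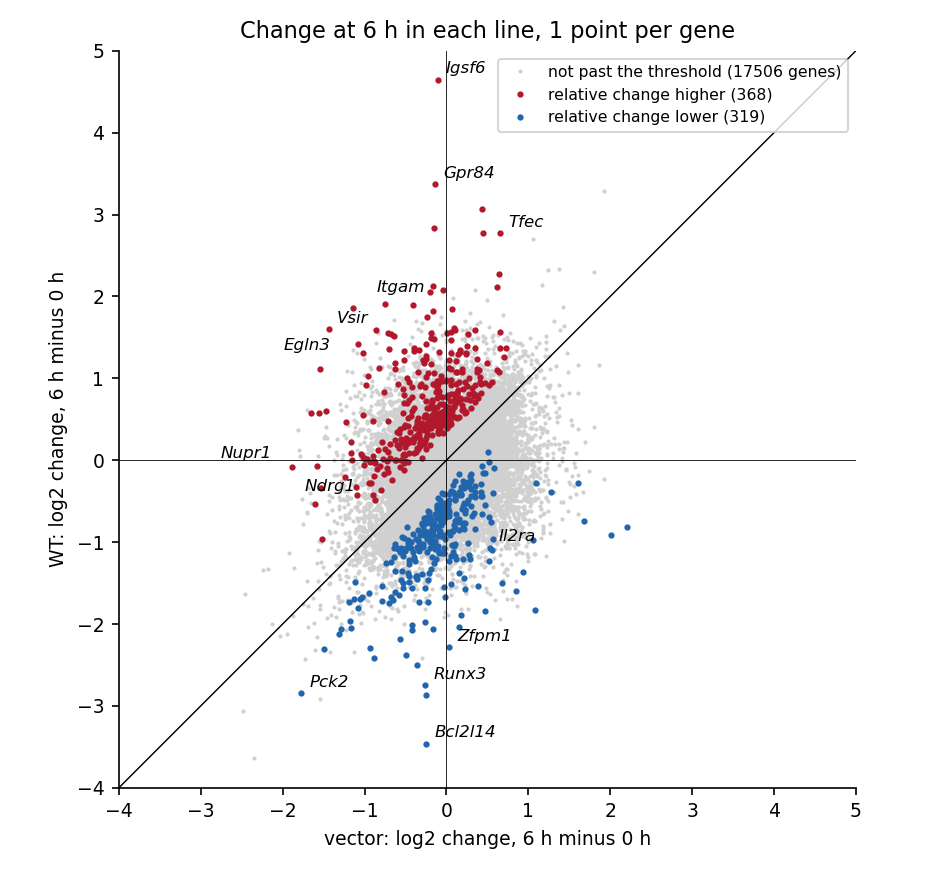
Log2 change from 0 h to 6 h in vector (x axis) and in WT (y axis), 1 point per gene for 18193 genes; the diagonal marks equal change in both lines. The 368 higher genes (red) lie above the diagonal and the 319 lower genes (blue) below it; Gpr84 sits near an unchanged vector value, while Nupr1 and Ndrg1 lie at the left with WT changes near 0.

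Surface receptors of phagocytes were the group with the most rises. Of 31 measured members of the list of phagocyte receptors and oxidase parts, 13 rose relative to vector and 0 fell, with a median relative change of 0.45 against -0.05 over all genes. The 13 were 41.9% of the list, against 2.02% of all genes. A mean signal of 50 in at least 1 group was reached by 23 of the 31. Of all genes 8286 reached it, and 363 of these were higher, so 2.02% understates the share among genes as bright. The same holds below for lists whose members are mostly as bright. The list was chosen with earlier results of these data known. Gpr84, a receptor for medium-chain fatty acids on myeloid cells, read 77, 64 and 69 in vector at 0 h, 69, 63 and 58 in vector at 6 h, 66, 72 and 66 in WT at 0 h, and 755, 714 and 722 in WT at 6 h. The 3 WT 6 h arrays stand alone, with no other array near them. Its relative change was 3.51 ± 0.18 (adjusted p = 3.41e-18), an 11.4-fold difference. Igsf6, an immunoglobulin-superfamily membrane protein, read 1 or 2 on each of the 9 other arrays and 127, 93 and 98 in WT at 6 h. Its relative change of 4.76 ± 0.50 (adjusted p = 2.57e-09) was the largest rise by the naming rule, but its size depends on the constant added to the signal: it was 3.17 with 12 and 2.06 with 32.

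Itgam, the α chain of complement receptor 3 (CD11b), read 32, 30 and 39 in vector at 0 h and 19, 13 and 26 at 6 h. In WT it went from 145, 125 and 128 to 476, 518 and 519. The lines already differed at 0 h (log2 difference 1.89, adjusted p = 5.8e-12), and then moved apart, so that the groups did not overlap at either time; the relative change was 2.65 ± 0.23 (adjusted p = 6.75e-12). Fcgr2b, the inhibitory receptor for IgG, stood at 77, 74 and 89 in vector at 0 h and 80, 67 and 66 at 6 h, and went from 286, 288 and 264 to 1114, 931 and 942 in WT. WT was above vector before 4-HT here too, and the change passed in WT alone, at 1.82 ± 0.13. Its relative change was 1.99 ± 0.19 (adjusted p = 8.56e-11), and its 3 other bright probe sets gave 2.79 to 3.02. A further probe set, at a signal under 10, did not pass.

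The other called members were Fcgr3 (1.19 ± 0.15) and Fcgr1 (1.18 ± 0.18), which bind IgG; the chemokine receptors Cxcr2 (1.74 ± 0.39), Cxcr4 (1.40 ± 0.32) and Ccr1 (1.28 ± 0.28) with the related Ccrl2 (0.95 ± 0.27); the C-type lectins Clec4d (1.63 ± 0.20) and Clec4e (1.63 ± 0.19); and the oxidase parts Ncf1 (0.77 ± 0.13) and Cyba (0.70 ± 0.16). Their adjusted p ran from 5.3e-08 to 0.0485. Members under a signal of 20 in all 4 groups, among them Cybb, Fpr2, C5ar1, Itgax and Clec7a, gave no call. Csf3r, the G-CSF receptor, was dim, with means of 48.7 at 0 h and 27.7 at 6 h in vector and 57.3 and 28.7 in WT (relative change -0.18 ± 0.44, adjusted p = 0.96). With other settings 8 to 13 members of the list rose, the fewest without replicate 3 of every group. All 13 were also called with median centring and with quantile normalization, and at an unadjusted p under 0.05 the list had 16 higher and 1 lower. At 0 h, 8 of the 31 members were already higher in WT than in vector and 0 lower, against 3.28% of all genes that differed in either direction. That comparison shares the 0 h arrays with the relative change.

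**Figure D2:**
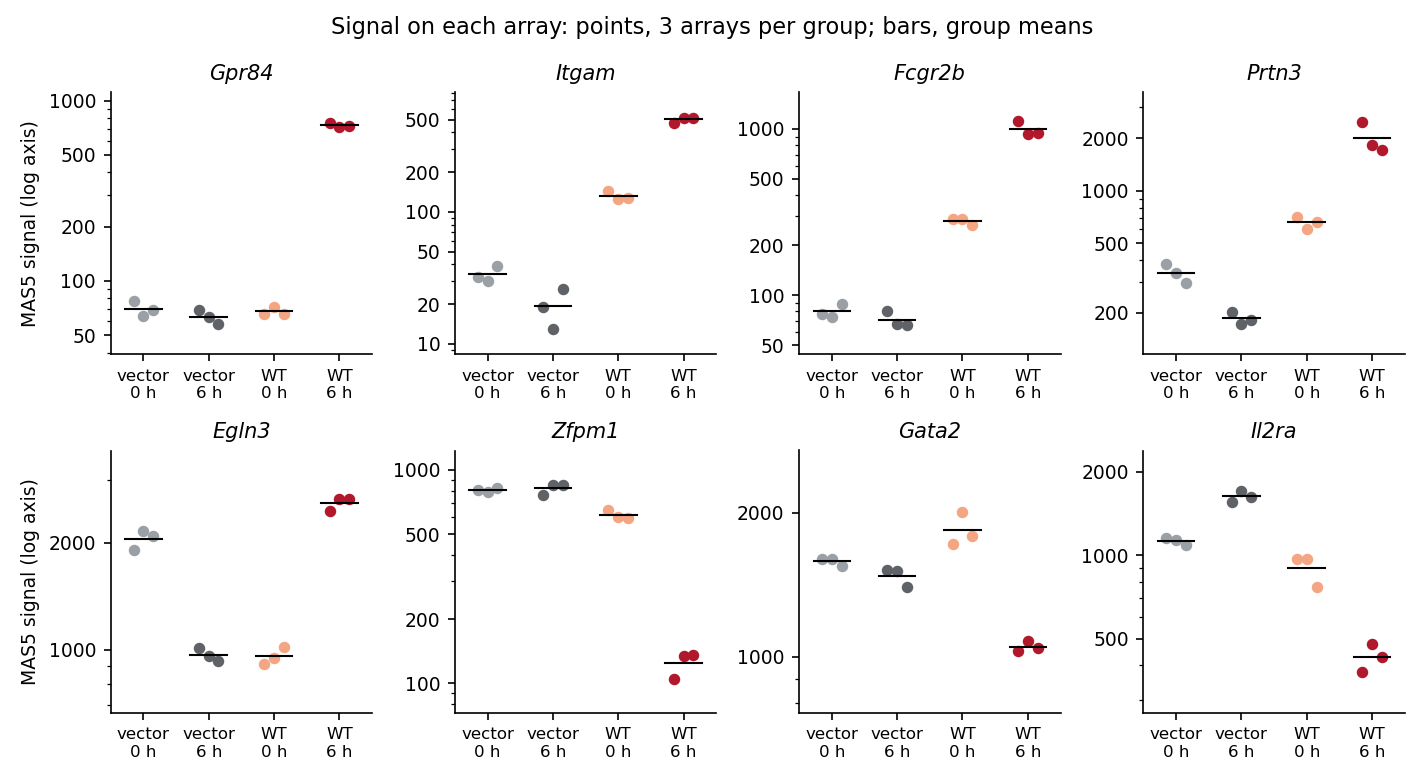
MAS5 signal (log axis, a separate scale for each gene) of 8 genes on each of the 12 arrays; points are arrays, black bars the means of 3. In Gpr84, Itgam, Fcgr2b, Prtn3 and Egln3 all 3 WT 6 h arrays lie above the other 9, and in Zfpm1, Gata2 and Il2ra below them.

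Other membrane and signalling genes were among the 15 largest rises. Vsir, which encodes the checkpoint receptor VISTA of myeloid cells, fell from 88, 102 and 96 to 32, 32 and 36 in vector and went from 156, 124 and 134 to 394, 400 and 477 in WT. The lines moved in opposite directions and gave a relative change of 3.03 ± 0.22 (adjusted p = 8.78e-14). Gpr160, an orphan receptor, behaved alike at lower signals: 22, 47 and 32 became 11, 3 and 18 in vector, and 45, 69 and 70 became 139, 140 and 123 in WT (2.66 ± 0.44, adjusted p = 4.48e-05). Ifitm6, of the interferon-induced transmembrane family, went from 1671, 1951 and 1942 to 7017, 4676 and 4853 in WT and from 555, 600 and 581 to 345, 377 and 332 in vector. Replicate 1 of WT at 6 h was the highest array, and the call held without it; the relative change was 2.27 ± 0.16 (adjusted p = 3.63e-14). Irak3, an inhibitor of Toll-like receptor signalling, read 56 to 88 on the 6 vector arrays, 119, 145 and 138 in WT at 0 h and 556, 597 and 537 in WT at 6 h (2.25 ± 0.30, adjusted p = 5.8e-07). Dmkn, the secreted protein dermokine, stayed dim, at 67, 64 and 53 in WT at 6 h and 1 to 19 elsewhere (3.01 ± 0.62, adjusted p = 0.00148). With larger added constants of 12 and 32 the relative change of Dmkn was 1.96 and 1.22, that of Gpr160 2.04 and 1.46, and with 32 that of Vsir was 2.38; all kept their calls.

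Of the 26 chemokines and cytokines measured, 5 were higher and 0 lower in limma (8 and 3 at an unadjusted p under 0.05). The 5 were 19.2% of the list, against 2.02% of all genes. Il4, the type 2 cytokine, read 73, 65 and 75 in vector at 0 h, 58, 57 and 77 in vector at 6 h, 87, 74 and 83 in WT at 0 h and 684, 601 and 524 in WT at 6 h. The 9 other arrays form one low cluster, and the relative change was 2.99 ± 0.37 (adjusted p = 1.02e-07), a 7.96-fold difference. Cxcl2, a neutrophil-attracting chemokine, fell in vector and rose in WT, all at signals of 16 to 62 (1.95 ± 0.35, adjusted p = 0.000227, and 1.04 with an added constant of 32). Il6 rose in WT from 67, 76 and 104 to 239, 241 and 254, which was below the 266 to 303 of the vector arrays; its relative change was 2.83-fold (adjusted p = 0.0167, or 0.0655 without replicate 1 of WT at 0 h). Ccl6, a myeloid chemokine, gave 1.24 ± 0.33 and Csf1, the macrophage growth factor, 0.67 ± 0.11. Csf1 fell in both lines, by 1.10 in vector and by 0.43 in WT.

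C/EBP proteins bind a palindrome of 2 half-sites. Promoter windows from RefSeq (GRCm38.p6), from 250 bases before to 50 bases after each annotated start, were searched on both strands for 1 spaced form of it, TTGCNNAA, which reads TTNNGCAA on the other strand. Of the 32851 windows in the table, 3547 (10.8%) held it. A window was found for 13 of the 15 genes with the largest rises, and 3 of the 13 held a match in at least 1 window: Dmkn, Il4 and Irak3. Of the 13 genes with a window among the 15 largest falls, 2 held a match, Cd244a at chr1:171558943-171559242 and Pglyrp2 at chr17:32420926-32421225. Counted as windows, as the 10.8% is, 5 of 17 held a match among the rises and 2 of 16 among the falls. Of those 5, 3 were windows of Dmkn, 2 of which overlap. The windows of Gpr84, Itgam and Prtn3 held none. A match describes these letters and is no evidence of binding. The windows of the 3 rising genes are printed 5′ to 3′ along the gene's strand because all 3 WT 6 h arrays stood above all others for each; capitals mark the matches, which begin 48 bases before the start in Il4, 8 bases after it in Irak3 and 143 bases before it in Dmkn.
Il4, chr11:53618616-53618915, minus strand: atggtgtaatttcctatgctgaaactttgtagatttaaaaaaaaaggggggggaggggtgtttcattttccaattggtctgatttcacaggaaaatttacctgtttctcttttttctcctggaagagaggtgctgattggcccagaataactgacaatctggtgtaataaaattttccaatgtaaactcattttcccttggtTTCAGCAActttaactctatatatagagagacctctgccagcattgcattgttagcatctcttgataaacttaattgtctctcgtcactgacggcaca
Irak3, chr10:120202081-120202380, minus strand: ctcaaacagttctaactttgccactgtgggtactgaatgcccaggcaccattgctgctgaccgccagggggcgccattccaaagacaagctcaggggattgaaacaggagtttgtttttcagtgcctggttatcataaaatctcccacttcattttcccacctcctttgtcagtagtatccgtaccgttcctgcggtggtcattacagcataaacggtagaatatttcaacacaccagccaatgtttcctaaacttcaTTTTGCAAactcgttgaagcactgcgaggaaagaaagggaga
Dmkn, chr7:30776155-30776454, plus strand: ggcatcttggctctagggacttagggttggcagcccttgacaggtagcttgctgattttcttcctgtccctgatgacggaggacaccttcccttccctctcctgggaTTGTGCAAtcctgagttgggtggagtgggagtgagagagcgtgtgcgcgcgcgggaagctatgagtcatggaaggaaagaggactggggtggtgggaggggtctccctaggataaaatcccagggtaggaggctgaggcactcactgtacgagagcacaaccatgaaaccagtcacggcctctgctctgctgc

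Granule genes moved singly at 6 h. The list named for primary granules had 13 measured genes, not all of which encode proteins of such granules. On it Prtn3 and Hp rose and Serpinb1a fell (15.4% and 7.69%, against 2.02% and 1.75% of all genes). Of 20 genes of later granules and S100 proteins, Anxa3, Lcn2, Slpi and Anxa1 were higher relative to vector (20%). S100a4 and S100a10 were lower (10%). The change of Anxa1 passed in vector alone. The call of S100a4 was lost without any of 8 single arrays (adjusted p up to 0.149): replicates 1 and 2 of vector at 0 h, 1 and 3 of vector at 6 h, 2 and 3 of WT at 0 h, and 2 and 3 of WT at 6 h. S100a10 gave -0.51 on its brightest probe set and -0.20 (adjusted p = 0.936) on another, at a signal of 898. Prtn3, the serine protease proteinase 3, went from 710, 603 and 660 to 2473, 1836 and 1708 in WT and fell from 339 ± 41.5 (SD, n = 3) to 202, 172 and 183 in vector, with no overlap between any of the 4 groups. Its relative change was 2.44 ± 0.19 (adjusted p = 1.65e-13). Hp, the hemoglobin-binding protein haptoglobin, read 1 to 8 on the 9 other arrays and 57, 56 and 42 in WT at 6 h (2.34 ± 0.42, adjusted p = 0.000233), and 1.72 and 1.09 with added constants of 12 and 32. The call of Hp was lost when only the 12 arrays were fitted and without replicate 1 of every group (adjusted p up to 0.147).

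Anxa3, an annexin of neutrophils, rose in WT from 183, 196 and 209 to 2005, 1525 and 1518, while vector read 7 to 24 at both times. WT stood 3.58 above vector on the log2 scale before 4-HT, and the relative change was 2.64 ± 0.26 (adjusted p = 6.09e-10). Lcn2, an iron-scavenging lipocalin of specific granules, rose from 575, 608 and 598 to 1829, 1682 and 1687 in WT and fell from 432, 436 and 443 to 272, 273 and 275 in vector (2.21 ± 0.20, adjusted p = 4.66e-11). The protease inhibitor Slpi gave 1.75 ± 0.20, again with a rise in WT and a fall in vector. Serpinb1a, the inhibitor of neutrophil elastase, fell from 2594, 2618 and 2976 to 1778, 2021 and 1884 in WT (-0.78 ± 0.17, adjusted p = 0.00294). Mpo, the myeloperoxidase of primary granules, did not pass at 6 h: it read 10 to 20 on the 9 other arrays and 32, 28 and 22 in WT at 6 h (0.58 ± 0.56, adjusted p = 0.848). At 12 h it stood at 366, 388 and 401 in WT and 8, 23 and 7 in vector, and the relative change from 6 h to 12 h was 4.03 ± 0.56 (adjusted p = 1.94e-05).

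Of 18 listed transcription factors of myeloid cells, 4 were higher and 0 lower in limma, with the same counts at an unadjusted p under 0.05. The 4 were 22.2% of the list, against 2.02% of all genes. Tfec, a MiT-family factor, went from 193, 189 and 207 to 1319, 1391 and 1366 in WT and from 317, 332 and 356 to 559, 527 and 499 in vector, so it rose in both lines, 4.35-fold more in WT (2.12 ± 0.17, adjusted p = 4.61e-13). Gfi1, a repressor that neutrophil formation requires, read 122 to 137 on the 9 other arrays and 274, 308 and 310 in WT at 6 h (1.09 ± 0.14, adjusted p = 4.59e-07). Spi1, which encodes PU.1, rose from 843, 773 and 708 to 1089, 1169 and 1237 in WT against 441 to 524 in vector. Its relative change of 0.55 ± 0.14 (adjusted p = 0.017) lost its call without replicate 2 of vector at 0 h, replicate 2 of vector at 6 h, replicate 3 of WT at 0 h or replicate 3 of WT at 6 h, where the adjusted p reached 0.075. Id2, an inhibitor of basic helix-loop-helix factors, stayed at 398 to 523 in WT and fell from 452, 503 and 458 to 336, 265 and 242 in vector (0.88 ± 0.17, adjusted p = 0.000523). Mxi1, a MYC antagonist, had the same form (0.80 ± 0.12, adjusted p = 9.99e-06).

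In the C/EBP family and its partners, 2 of 15 measured genes rose and 1 fell (13.3% and 6.67%, against 2.02% and 1.75% of all genes). Nfil3, a basic leucine-zipper repressor, rose from 271, 226 and 259 to 636, 531 and 729 in WT and fell from 463, 473 and 576 to 226, 266 and 245 in vector (2.33 ± 0.20, adjusted p = 1.2e-11). The WT 6 h range overlapped that of vector at 0 h, because WT started lower. Trib1, a pseudokinase that promotes the degradation of C/EBPα protein, stood at 100, 130 and 123 in WT at 6 h and at 24 to 52 elsewhere. Its relative change was 1.55 ± 0.42 (adjusted p = 0.031), and without any of 7 single arrays the call was lost: replicates 1 and 3 of vector at 0 h, 2 of vector at 6 h, 2 and 3 of WT at 0 h, and 2 and 3 of WT at 6 h (adjusted p up to 0.143). Cebpa itself fell in both lines, from 194, 198 and 179 to 86, 74 and 66 in vector and from 580, 653 and 573 to 138, 139 and 132 in WT. The further fall in WT was -0.81 ± 0.20 (adjusted p = 0.0154). It missed the threshold with quantile normalization, with median centring and without replicate 3 of vector at 0 h, replicate 1 of vector at 6 h or replicate 2 of WT at 0 h (adjusted p up to 0.0763 without a single array). Whether this probe set also reads the fusion transcript was not tested. Cebpb (0.35 ± 0.14), Cebpd (0.21 ± 0.19) and Cebpg (0.01 ± 0.11) did not pass.

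Among transcription factors of early progenitors, more members fell than rose. Of 28 measured, 6 fell relative to vector and 1 rose, with a median of -0.34, and 21 did not pass. The shares were 21.4% lower and 3.57% higher, against 1.75% and 2.02% of all genes. All 6 fell in WT with a vector change that did not pass. Zfpm1, the GATA cofactor FOG-1, read 808, 787 and 824 in vector at 0 h, 759, 853 and 854 in vector at 6 h, 650, 602 and 592 in WT at 0 h and 105, 134 and 136 in WT at 6 h. The WT 6 h arrays were far below all others, and the relative change was -2.30 ± 0.15 (adjusted p = 1.33e-15). Gata2, the progenitor factor named in the title of the series, went from 1724, 2009 and 1791 to 1026, 1080 and 1044 in WT and from 1604, 1599 and 1547 to 1516, 1510 and 1400 in vector. Again the WT 6 h arrays lay below the other 9; the relative change was -0.70 ± 0.12 (adjusted p = 9.58e-05), a ratio of 0.614. Tal1, the basic helix-loop-helix factor of the same progenitors, fell from 1453, 1341 and 1408 to 801, 834 and 917 in WT (-0.87 ± 0.11, adjusted p = 1.11e-07), the corepressor Cbfa2t3 from 847, 873 and 821 to 439, 492 and 466 (-0.94 ± 0.13, adjusted p = 2.73e-06). Lyl1 (-0.51 ± 0.11) and Hhex (-0.55 ± 0.12) fell less. Ikzf1, which encodes Ikaros, rose by 0.62 ± 0.12, a call lost with median centring and without replicate 2 or replicate 3 of every group.

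With median centring 1 of these 6 falls passed the threshold, Zfpm1, though the median of the list stayed below 0 at -0.18. Without replicate 2 of every group 3 of the 6 passed and without replicate 3 of every group 4, and without any single array 6 or 7 members fell. The adjusted p of Gata2 was highest, 0.335, with median centring, and it was also lost without replicate 2 of every group. Myb, the other factor named in the title, did not pass: it read 1891, 2089 and 1878 in vector at 0 h, 2308, 2253 and 2218 in vector at 6 h, 2134, 2111 and 2254 in WT at 0 h and 2994, 2508 and 2808 in WT at 6 h. Both lines were higher at 6 h, past the threshold in WT, and the relative change was 0.14 ± 0.14 (adjusted p = 0.858). Gata1 stayed at 32 to 77 (-0.35 ± 0.37, adjusted p = 0.864).

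The largest falls were of genes with various roles. Bcl2l14, of the BCL2 family, dropped from 190, 143 and 116 to 9, 18 and 7 in WT and read 119 to 168 in vector (-3.21 ± 0.43, adjusted p = 9.28e-07); its other probe set, at signals up to 60.3, gave -1.26 with an adjusted p of 0.171. Runx3, of the RUNX family, dropped from 328, 254 and 266 to 36, 50 and 34 in WT and stayed at 244 to 342 in vector (-2.48 ± 0.28, adjusted p = 1.63e-08). Spns2, a sphingosine-1-phosphate transporter, dropped from 1895, 1694 and 1597 to 429, 487 and 346 in WT against 1603 to 1866 in vector (-2.19 ± 0.16, adjusted p = 3.63e-14). In each of these genes the WT 6 h arrays lay apart from the other 9. With an added constant of 32 Bcl2l14 gave -1.85 and Runx3 -1.89. Cep63, a centrosome protein, dropped from 834, 846 and 836 to 167, 239 and 234 (-1.71 ± 0.14, adjusted p = 7.91e-13). A second Cep63 probe set, at signals up to 14.3, gave 0.40 (adjusted p = 0.951).

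Receptors and adaptors of immune cells were among the falls. Cd244a, a SLAM-family receptor, fell from 85, 85 and 76 to 25, 14 and 25 in WT (-2.31 ± 0.48, adjusted p = 0.00154), with a lost call without replicate 2 of every group (adjusted p = 0.156). Another Cd244a probe set, as bright at 81, gave -1.19 and did not pass (adjusted p = 0.226). Clnk, an adaptor of the SLP-76 family, fell from 97, 123 and 106 to 40, 44 and 50 (-1.74 ± 0.26, adjusted p = 6.02e-06). Podxl, the sialomucin podocalyxin, fell in WT from 155, 159 and 187 to 51, 59 and 62 and rose in vector from 278, 252 and 194 to 387, 410 and 360 (-2.18 ± 0.24, adjusted p = 4.93e-09). The rest of the 15 largest falls were the secreted C1qtnf1 (-2.62 ± 0.42), the formin Fhod1 (-2.14 ± 0.53), the peroxidase Gpx8 (-1.90 ± 0.38), the zinc finger protein Zfp385a (-1.89 ± 0.44), the secreted pseudokinase Fam20a (-1.80 ± 0.45), the protease inhibitor Ctla2b (-1.66 ± 0.19) and the peptidoglycan amidase Pglyrp2 (-1.65 ± 0.19). Fhod1 and Zfp385a lost their calls without replicate 1 of WT at 6 h, with adjusted p of 0.107 and 0.0502. The second probe set of C1qtnf1, at signals up to 64, gave -0.72 (adjusted p = 0.789). The sizes of several of these falls depended on the added constant: with 32 they were -0.84 for C1qtnf1, -1.48 for Cd244a, -0.93 for Fhod1, -1.21 for Gpx8 and -0.92 for Zfp385a, all still called.

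The list of glycolytic enzymes and targets of HIF, the hypoxia-inducible factor, was the other list with many higher members. Of its 28 members 11 were higher and 0 lower (13 and 1 at an unadjusted p under 0.05), with a median relative change of 0.31. Among the 11, Hk2 and Pfkp are the enzymes of glycolysis. The 11 were 39.3% of the list, against 2.02% of all genes. This list too was chosen with earlier results of these data known. More members moved in vector than in WT: 15 of the 28 fell in vector and 0 rose, while 4 rose and 7 fell in WT. Over all 18193 genes, 1349 fell and 945 rose in vector, and 1579 rose and 2264 fell in WT. Ndrg1, a stress-induced HIF target, fell from 736, 739 and 775 to 258, 264 and 224 in vector and read 322, 394 and 385 at 0 h and 404, 323 and 321 at 6 h in WT. The change passed in vector alone, which ended a little below WT. The relative change was 1.51 ± 0.15 (adjusted p = 2.9e-10), and the 4 other Ndrg1 probe sets gave 1.31 to 1.84. Bnip3, a mitophagy receptor, fell by 1.16 in vector with a WT change of 0.00 (relative change 1.16 ± 0.13). The same form held in Ankrd37 (2.23 ± 0.36, or 1.47 with an added constant of 32), in Ero1a, the thiol oxidase of the endoplasmic reticulum (1.40 ± 0.15), in P4ha1, a collagen prolyl hydroxylase (0.86 ± 0.18), in Pdk1, the pyruvate dehydrogenase kinase (0.84 ± 0.17), and in the HIF hydroxylase Egln1 (0.80 ± 0.16).

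Egln3, Hk2 and Slc2a1 also rose in WT. Egln3, a HIF prolyl hydroxylase, fell in vector from 1904, 2158 and 2094 to 1014, 964 and 930 and rose in WT from 913, 949 and 1022 to 2457, 2649 and 2646, so that the order of the lines was turned around between 0 h and 6 h. Its relative change was 2.50 ± 0.13 (adjusted p = 3.41e-18). Hk2, a hexokinase, went from 417, 438 and 357 to 1045, 1019 and 1076 in WT and from 656, 600 and 547 to 472, 454 and 439 in vector (1.77 ± 0.13, adjusted p = 2.67e-14). Slc2a1, the glucose transporter GLUT1, went from 314, 334 and 321 to 659, 706 and 743 in WT and from 791, 855 and 741 to 540, 527 and 475 in vector (1.74 ± 0.13, adjusted p = 1.86e-13). Pfkp, a phosphofructokinase, fell in both lines, less in WT (0.43 ± 0.12, adjusted p = 0.0319). Ldha (0.08 ± 0.23), Pgk1 (-0.06 ± 0.29), Pkm (0.01 ± 0.23) and Aldoa (-0.13 ± 0.25) did not pass.

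These genes started from different levels. At 0 h, 10 of the 28 members were lower in WT than in vector and 0 higher. Over all 18193 genes, 284 were lower and 313 higher. These 0 h arrays also enter the relative change. Under the other settings 8 to 12 members were higher, and 10 of the 11 were also called with median centring. Outside the list, Ak4, a mitochondrial adenylate kinase, had the form of Hk2: 453, 468 and 420 became 297, 347 and 289 in vector, and 221, 230 and 229 became 585, 583 and 565 in WT (1.86 ± 0.13, adjusted p = 1.25e-14).

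The largest relative changes that came from the vector line alone included genes of other kinds. Nupr1, a stress-induced chromatin protein, fell from 170, 173 and 175 to 59, 36 and 41 in vector and stayed at 191 to 209 on all WT arrays (1.81 ± 0.16, adjusted p = 3.83e-11). On the lower side, Ctla2a, a relative of Ctla2b, rose from 316, 338 and 377 to 714, 666 and 838 in vector and read 393 to 725 in WT (-1.37 ± 0.25, adjusted p = 0.000336). Zyx, the focal adhesion protein zyxin, gave -0.63 ± 0.11 and Dock10, an exchange factor of the CDC42 family, -0.67 ± 0.14. These calls on the lower side were lost with median centring. Mocos, a molybdenum cofactor enzyme (1.38 ± 0.39), lost its call without any single array, and Qrsl1, a mitochondrial amidotransferase subunit (-0.97 ± 0.27), without 9 of the 12.

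**Figure D3:**
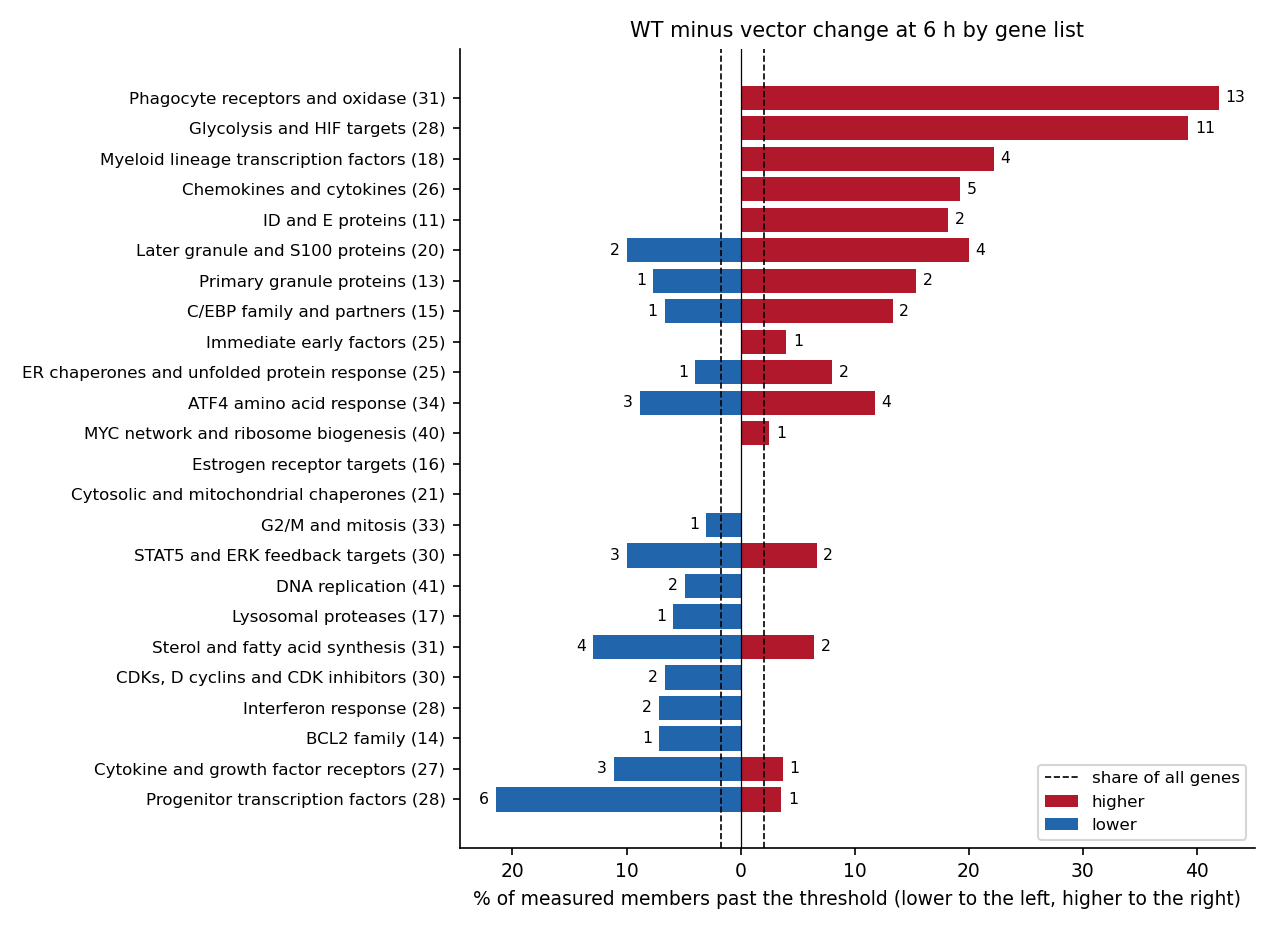
Share of the measured members of each of 24 gene lists (number measured in parentheses) with a higher (right, red) or lower (left, blue) relative change at 6 h; the numbers on the bars are gene counts and the dashed lines the shares of all genes, 2.02% and 1.75%. Phagocyte receptors (13 of 31) and glycolysis with HIF targets (11 of 28) have the longest bars on the right, and progenitor transcription factors (6 of 28) the longest on the left. The lists were chosen with earlier results of these data known.

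Several programs changed in both lines. Of all 18193 genes, 1579 rose and 2264 fell in WT, and 945 rose and 1349 fell in vector. Of 40 genes of the MYC network and ribosome biogenesis, 29 rose in WT and 26 in vector. As a relative change 1 passed (Mxi1, higher), 2.5% of the list against 2.02% of all genes. At an unadjusted p under 0.05 in limma, 8 of the 40 were higher and 0 lower. Myc itself rose in WT from 1119, 1198 and 1243 to 1714, 1974 and 2120 and in vector from 791, 814 and 953 to 978, 1049 and 1093, with a relative change of 0.41 ± 0.13 (adjusted p = 0.104; it passed with array weights and without replicate 1 of WT at 6 h). Of 34 genes of the ATF4 amino acid response, 19 fell in WT and 25 in vector. In that list 4 relative changes were higher and 3 lower, 11.8% and 8.82% of it against 2.02% and 1.75% of all genes (7 and 7 at an unadjusted p under 0.05 in limma). Pck2, the mitochondrial PEP carboxykinase, fell from 1208, 1186 and 1122 to 173, 160 and 151 in WT and from 1048, 1018 and 1056 to 333, 273 and 301 in vector, further in WT by -1.06 ± 0.12 (adjusted p = 1.11e-08). Its other probe set, at signals up to 168, gave -0.72 (adjusted p = 0.417). Slc7a5, an amino acid transporter, fell only in vector (0.63 ± 0.12, adjusted p = 0.000268).

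Of 31 genes of sterol and fatty acid synthesis, 18 fell in WT and 16 in vector, against 2264 and 1349 of all 18193 genes. As relative changes 2 were higher (6.45%) and 4 lower (12.9%), against 2.02% and 1.75% of all genes. At an unadjusted p under 0.05 in limma, 5 of the 31 were higher and 8 lower. Abcg1, a cholesterol exporter on that list, fell in WT from 970, 978 and 1103 to 407, 432 and 484 while vector read 815 to 1045 (-1.40 ± 0.17, adjusted p = 1.12e-07). Acaca, the acetyl-CoA carboxylase, rose in WT from 306 ± 13.9 (SD, n = 3) to 643, 519 and 585 (0.86 ± 0.17, adjusted p = 0.000842); a second probe set, at 173, gave 0.73 (adjusted p = 0.181). Of 25 genes of the endoplasmic reticulum and its stress response, 2 were higher and 1 lower (5 and 2 at an unadjusted p under 0.05 in limma). The called ones were 8% and 4% of the list, against 2.02% and 1.75% of all genes. Ern1, the stress sensor IRE1α, gave 1.19 ± 0.15 and Edem1 0.67 ± 0.14, while Herpud1 gave -0.54 ± 0.13. A second Herpud1 probe set, at 532, gave -0.34 (adjusted p = 0.703), and the median over the 5 Ern1 probe sets was 0.30. Of 28 interferon response genes, 16 fell in WT and 8 in vector, and Usp18 (-0.79 ± 0.19) and Psmb8 (-0.45 ± 0.10) fell relative to vector, both lost with median centring. Usp18 and Psmb8 were 7.14% of the list, against 1.75% of all genes. At an unadjusted p under 0.05 in limma the interferon list had 1 higher and 9 lower. Of 21 chaperones 0 passed in limma, with 1 higher and 1 lower at an unadjusted p under 0.05. Of 16 estrogen receptor targets 0 passed in limma, and 0 at an unadjusted p under 0.05.

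Few members of the cell cycle lists were called, all of them lower, and none of these calls held with median centring. Of 41 replication genes, 2 fell relative to vector (Tk1, thymidine kinase, -0.51 ± 0.12; Rfc2, -0.57 ± 0.16), of 33 mitotic genes 1 (Nusap1, -0.35 ± 0.10), and of 30 CDKs, D cyclins and CDK inhibitors 2. The latter were the inhibitors Cdkn2d, which fell from 668, 659 and 651 to 306, 304 and 294 in WT and from 703, 664 and 736 to 552, 520 and 505 in vector (-0.71 ± 0.10, adjusted p = 3.59e-06), and Cdkn2c (-0.46 ± 0.12). The shares that fell were 4.88%, 3.03% and 6.67%, against 1.75% of all genes. Most members reached a mean signal of 50 in at least 1 of the 4 groups (40 of 41, 33 of 33 and 26 of 30). Of all genes 8286 did so, and 309 of these were lower, so 1.75% understates the share among genes as bright. Whether the list shares exceed the share among such genes was not tested. At an unadjusted p under 0.05, 2 replication genes were higher and 6 lower, 0 mitotic genes higher and 6 lower, and 1 gene of the CDK list higher and 11 lower. Within the lines, 17 of the 33 mitotic genes fell in WT and 8 in vector, against 2264 and 1349 of all 18193 genes. Cdkn2c lost its call without replicate 3 of vector at 0 h, 2 of vector at 6 h, 2 of WT at 0 h or 3 of WT at 6 h (adjusted p up to 0.0819). Rfc2 and Nusap1 lost their calls without any of 10 of the 12 single arrays (adjusted p up to 0.191 and 0.196), and with median centring all 5 of these genes did. With the replicate number as a block Rfc2 also missed the threshold (adjusted p = 0.0513). The kinases Cdk2 (-0.35 ± 0.12, adjusted p = 0.173) and Cdk4 (-0.25 ± 0.12, adjusted p = 0.445) and the inhibitor Cdkn1a (-0.20 ± 0.15, adjusted p = 0.754) did not pass. All 3 WT 6 h arrays of Cdk2 and of Cdk4 lay below the other 9, as was the case for 6.31% of all genes. Other Cdk4 probe sets, at signals up to 1377 and 1041, gave 0.07 and -0.10 (adjusted p = 0.958 and 0.893 in limma). With replicate 2 of WT at 6 h left out, Cdk2 passed.

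Of 27 cytokine and growth factor receptors, 1 was higher and 3 lower (3.7% and 11.1%, against 2.02% and 1.75% of all genes). Il2ra, the α chain of the interleukin-2 receptor and a STAT5 target, fell from 967, 966 and 770 to 378, 479 and 428 in WT and rose from 1154, 1131 and 1093 to 1563, 1705 and 1629 in vector (-1.60 ± 0.16, adjusted p = 4.6e-10). Il4ra, the receptor of the cytokine whose transcript rose, fell from 595, 597 and 510 to 286, 310 and 291 in WT and read 540 to 705 in vector (-0.86 ± 0.12, adjusted p = 1.34e-06). Csf2rb2, the interleukin-3 receptor β chain, gave -0.47 ± 0.11 and Il18r1, an interleukin-18 receptor chain, 0.93 ± 0.24; both had changed in vector only. Among 30 targets of STAT5 and ERK signalling, the phosphatase Dusp4 (-0.78 ± 0.13), the survival gene Bcl2l1 (-0.48 ± 0.13) and Il2ra fell, and Phlda1 (0.96 ± 0.15) and the kinase Pim2 (0.58 ± 0.11) were higher. That was 10% of the list lower and 6.67% higher, against 1.75% and 2.02% of all genes. Pim2 fell in vector only. Bcl2l1 lost its call without any of 6 single arrays (adjusted p up to 0.176), replicates 1 and 3 of vector at 0 h, 2 and 3 of vector at 6 h, 3 of WT at 0 h and 1 of WT at 6 h, and Il18r1 without replicate 1 of vector at 0 h, 1 of vector at 6 h, 3 of WT at 0 h or 2 of WT at 6 h (adjusted p up to 0.143). With median centring Il4ra, Dusp4, Bcl2l1, Pim2, Csf2rb2 and Il18r1 lost their calls. Abl1 (0.08 ± 0.15) and Bcr (0.18 ± 0.15), whose sequences the oncogene joins, did not pass. Lgals9, the lectin galectin-9, fell from 1730, 1637 and 1664 to 715, 790 and 748 in WT and rose from 1741, 1888 and 1706 to 2153, 2116 and 2203 in vector (-1.44 ± 0.10, adjusted p = 3.87e-14).

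Later arrays show which early differences lasted. The relative change from 6 h to 12 h passed for 65 genes (0.357%). It is taken from the same 6 h arrays, so genes chosen for a large value at 6 h are the more likely to be lower later. Of the genes called at 6 h with a signal of at least 50 in 1 group, 17 that were higher and 3 that were lower faded by 12 h, and 5 higher and 6 lower ones grew, out of 672. In the list of glycolysis and HIF targets, 8 of 28 members fell from 6 h to 12 h relative to vector and 0 rose. Bnip3 went from 1.16 at 6 h to 0.07 at 9 h and 0.16 at 12 h, and Ndrg1 from 1.51 to 0.36 and 0.30. The vector signal of Bnip3 returned from 891 at 6 h to 1525 at 12 h (means of 3 arrays), and that of WT went from 1161 to 998. Egln3 kept 1.77 ± 0.13 at 12 h of its 2.50. The median relative change of the list was 0.31 at 6 h, 0.11 at 9 h and -0.01 at 12 h, and that of the phagocyte list 0.45, 0.47 and 0.81.

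Clec4d, the lectin, was the phagocyte gene that faded, from 1.63 to 0.47 and 0.54. C1qtnf6, a secreted relative of C1qtnf1, and Cd82, a tetraspanin, were falls that faded, from -1.57 to -0.63 and from -0.77 to -0.09 at 12 h. Ccr1 grew from 1.28 at 6 h to 2.51 at 9 h and 2.83 at 12 h, Lcn2 from 2.21 to 2.47 and 3.18, and Plac8, a small cysteine-rich protein, from 0.72 to 1.28 and 1.56. The WT signals of these 3 genes went from means of 138, 1733 and 3432 at 6 h to 153, 1513 and 3093 at 12 h, and the vector signals from 23.3, 273 and 1525 to 8.0, 120 and 771. Il2ra fell further, from -1.60 to -2.05 and -2.65, and at 12 h it read 102, 99 and 96 in WT. Zfpm1 and Gata2 stood at -1.86 and -0.69 at 12 h, near their values of -2.30 and -0.70 at 6 h.

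**Figure D4:**
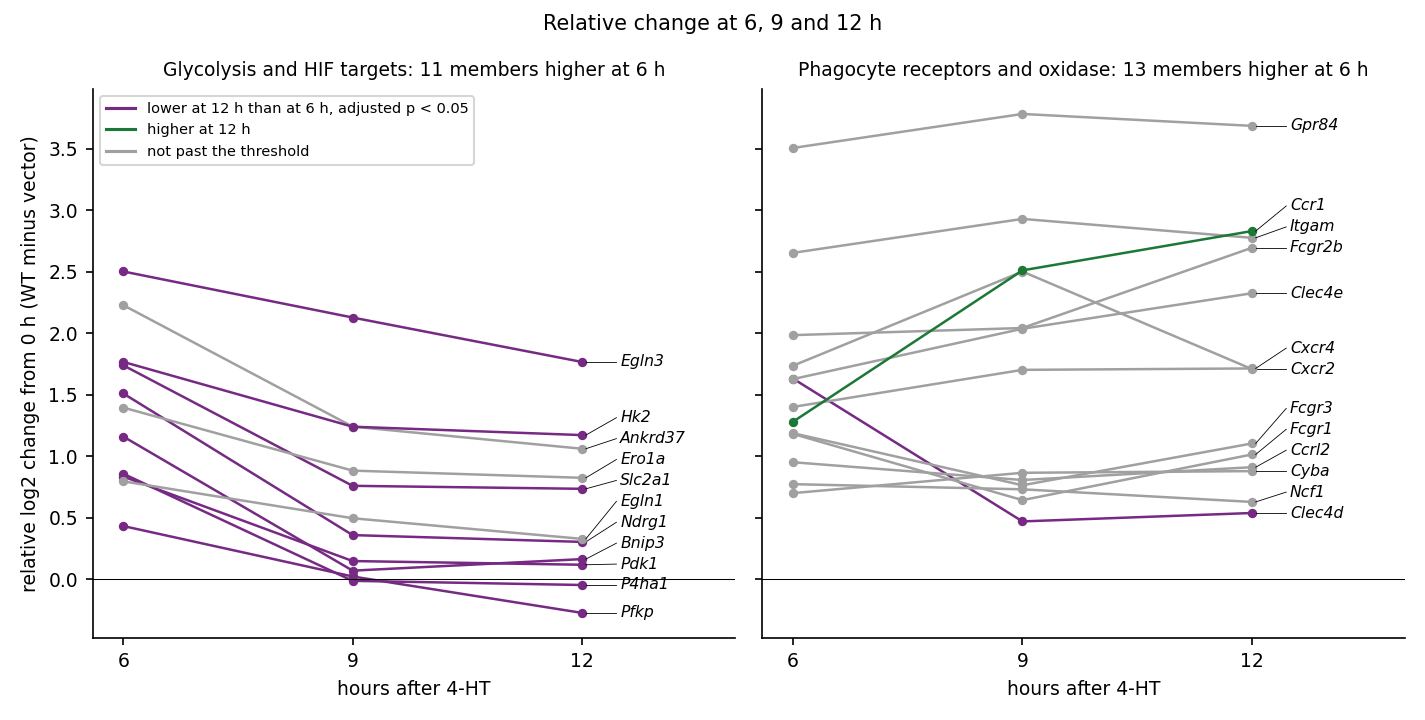
Relative log2 change from 0 h (WT minus vector) at 6, 9 and 12 h for the 11 glycolysis and HIF genes and the 13 phagocyte genes that were higher at 6 h; each point is a difference of means of 3 arrays, and all times share the 0 h arrays. Purple lines mark genes lower at 12 h than at 6 h and green lines genes higher (adjusted p under 0.05); 8 lines on the left and Clec4d on the right are purple, and Ccr1 is green.

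Lines with mutant fusions were measured at the same times. K298E is labelled as deficient in DNA binding and Δ(177-191) as deficient in the interaction with CDK2 and CDK4. The change at 6 h differed between WT and K298E for 766 genes (4.21%) and between WT and Δ(177-191) for 2013 (11.1%); both comparisons use the same WT arrays as the one with vector. The Esr1 signal was 979 to 1599 in K298E and 2787 to 4472 in Δ(177-191), against 2228 to 2607 in WT, so the lines also differed in this reading of the fusion, whose part was not tested. Igsf6 (WT minus K298E 3.70 ± 0.50), Tfec (2.67 ± 0.17), Il4 (2.63 ± 0.37) and Fcgr2b (1.47 ± 0.19) rose more in WT than in K298E, with adjusted p from 9.02e-16 to 3.13e-06. Zfpm1 (-1.65 ± 0.15), Spns2 (-2.12 ± 0.16), Runx3 (-2.40 ± 0.28) and Gata2 (-0.77 ± 0.12) fell more in WT, with adjusted p from 3.59e-13 to 2.63e-05. Gata2 read 1639, 1618 and 1671 at 0 h and 1626, 1549 and 1638 at 6 h in K298E.

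For some rises the difference from K298E did not pass. Prtn3 went from 702, 646 and 718 to 2013, 2020 and 2268 in K298E; the difference from WT was -0.02 ± 0.19 (adjusted p = 0.993). For Slpi it was -0.03 ± 0.20 (adjusted p = 0.986). Gpr84 rose in K298E from 53, 66 and 81 to 356, 383 and 350, a relative change of 2.55 ± 0.18 against vector, and WT exceeded it by 0.96 ± 0.18 (adjusted p = 0.000615). Itgam in WT exceeded K298E by 0.95 ± 0.23 (adjusted p = 0.0089).

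In the Δ(177-191) line several falls were larger than in WT. Spns2 fell there from 806, 937 and 909 to 47, 37 and 39, and Runx3 from 336, 409 and 358 to 9, 13 and 6, so that the change in WT was less negative by 2.30 ± 0.16 and 2.20 ± 0.28. Gata2 stood at 359, 427 and 441 at 0 h and 146, 130 and 140 at 6 h, a larger log2 fall than in WT from a lower start (difference 0.73 ± 0.12, adjusted p = 2.19e-05). The relative change of Prtn3 against vector was 0.39 in Δ(177-191) (adjusted p = 0.279), and WT exceeded it by 2.05 ± 0.19 (adjusted p = 2.25e-11). Of the HIF group, WT exceeded Δ(177-191) in Egln3 by 2.59 ± 0.13, in Hk2 by 2.58 ± 0.13 and in Slc2a1 by 2.31 ± 0.13, and K298E by 1.53 ± 0.13, 1.27 ± 0.13 and 1.91 ± 0.13. Vsir (0.52 ± 0.22, adjusted p = 0.195) and Zfpm1 (0.31 ± 0.15, adjusted p = 0.275) gave differences between WT and Δ(177-191) that did not pass.

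**Figure D5:**
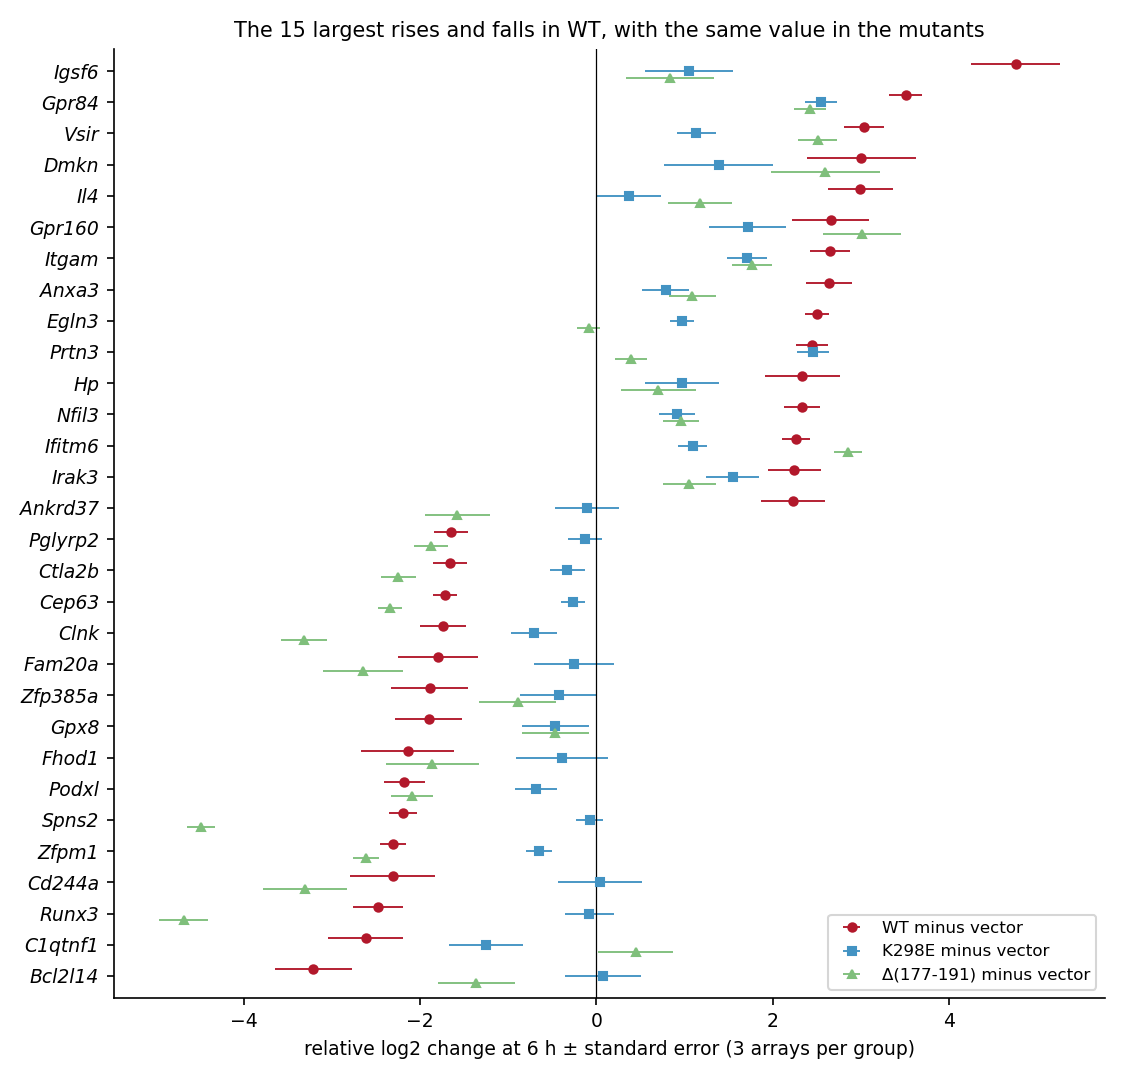
Relative log2 change at 6 h against vector (x axis, ± standard error, 3 arrays per group) of the 15 largest rises and 15 largest falls of WT, with the same value for K298E (squares) and Δ(177-191) (triangles); all 3 series share the vector arrays. Prtn3 lies at 2.44 in WT and 2.46 in K298E, and Runx3 at -2.48 in WT, -0.08 in K298E and -4.68 in Δ(177-191).

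Markers of cell types were counted in the same way, against 2.02% of all genes higher and 1.75% lower. The shares called lower were 18.2% of progenitor and 8.33% of mast cell and basophil markers. Those called higher were 6.67% of monocyte and macrophage and 9.09% of erythroid and megakaryocyte markers. Of 11 progenitor markers Spn and Cd48 fell relative to vector and 0 rose, and Cd34 was under a signal of 10 in every group. Of 15 monocyte and macrophage markers Adgre1, which encodes F4/80, rose (mean signal 931 to 1148 in WT and 641 to 565 in vector, relative change 0.48 ± 0.12, lost with median centring), while Marco, C1qa and C1qc stayed under 10; the summed signal of this list was 2107 to 2252 in WT at 0 h and 1895 to 2064 at 6 h, against 1161 to 1286 and 961 to 1010 in vector. Of 12 mast cell and basophil markers 1 passed, Gata2, which is also a progenitor factor, and the summed signal was 2181 to 2533 at 0 h and 1609 to 1741 at 6 h in WT, against 2138 to 2269 and 2024 to 2205 in vector. Fcer1a, Mcpt1, Mcpt2, Mcpt4 and Mcpt8 of that list stayed under 10. Of 11 erythroid and megakaryocyte markers 1, the platelet chemokine Ppbp, was higher, and the summed signal was 1711 to 1986 at 0 h and 1261 to 1335 at 6 h in WT, against 1677 to 1888 and 1609 to 1718 in vector. Alas2, Slc4a1 and Hba-a1 of that list stayed under 10. Of 11 lymphoid and 11 fibroblast markers 0 passed in limma, with 1 lower and 1 higher at an unadjusted p under 0.05. In RNA from whole cultures, fewer cells of a type and less RNA per cell cannot be told apart, and the part of these markers in the falls of Gata2 and Zfpm1 was not tested.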

How the data were processed

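Expression was measured on Affymetrix MOE430_2 arrays. The authors deposited linear signal intensities made with MAS5, which the submitters' processing notes name without a version. Trimmed mean signals were alike on the 12 arrays (99.5 to 99.8), so a global scaling to 1 target is already in the values. Of 45101 probe sets, 64 controls were left out. The platform annotation gave 1 gene symbol for 34945 probe sets, several for 932 and none for 9160.

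Signals were transformed as log2(signal + 3). A model with 16 group means was fitted to 48 arrays in limma 3.58.1 (R 4.3.3) with a variance trend and 32 residual degrees of freedom, and p-values were Benjamini-Hochberg adjusted over 45037 probe sets. The contrast was tested on simulated data first. The number of arrays, 3 per group, limits the precision. The main model has no replicate block.

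Genes were named by rule, among those called with a signal of 50 or more in 1 of the 4 groups: the 15 largest rises and falls; the 5 largest in each direction that came from vector alone, that moved oppositely in the 2 lines, that faded or that grew by 12 h; up to 3 in each direction per gene list at any signal; and a fixed set of factors. Called members of the 2 largest lists and Ccl6, Csf1, Lyl1, Hhex, Csf2rb2 and the uncalled members were named after their values were seen. The members of the comparison and the 24 gene lists were chosen with earlier results of these data known, as were 6 lists of cell type markers. Alternatives were another constant, a filter on low signals, quantile normalization, median centring, other variance models, a replicate block, arrays left out, and the median over all probe sets of a gene.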

Additional observations from a re-analysis of the deposited data

Results flagged for a closer look

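The following 10 genes stood out because the lines changed in opposite directions between 0 h and 6 h, past the threshold in each, with the difference tested as the interaction. In Vsir (relative change 3.03), Gpr160 (2.66), Itgam (2.65), Egln3 (2.50) and Prtn3 (2.44) WT rose and vector fell. In Podxl (-2.18), Ctla2b (-1.66), Sh3pxd2a (-1.64), Il2ra (-1.60) and Lgals9 (-1.44) WT fell and vector rose. Sh3pxd2a, the podosome scaffold TKS5, read 113, 119 and 129 at 0 h and 62, 51 and 52 at 6 h in WT, and 110, 114 and 110 and then 162, 163 and 169 in vector. All 10 kept their calls in the 24 other settings that gave a test.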

How the results depend on the processing

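Against 1118 probe sets past the threshold (603 higher, 515 lower), median centring gave 408 (326 higher, 82 lower), and 404 of the 408 were also called as deposited. Leaving out arrays gave 485 to 1011, with 282 to 559 higher and 203 to 489 lower; without replicate 2 of every group 485 passed, without replicate 3 of every group 564, and without replicate 1 of every group 753, of which 311 were lower. The other settings gave 811 to 1327. With a replicate block 1160 passed (628 higher, 532 lower), and 1100 of these were called without it; of the named genes Rfc2 alone lost its call (adjusted p = 0.0513). Deviations of same-numbered arrays correlated at -0.08 to 0.24, over 0.1 in 5 of 18 pairs and so not in all; between the lines at the same time it was 4 of 6, and among other-numbered pairs 1 of 36. Of 103 named genes that were called, 47 kept their call in all 24 settings with a test, and none of the settings reversed a named gene that was called; Cdk2, which was not called, went from -0.35 to 0.05 with the median over its probe sets.

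Limits are few arrays and a single line for each construct. Without an untreated culture at 6 h, the effects of 4-HT and of time in vector cannot be told apart. Probe sets near a signal of 10 carry little information on folds. With the median over all probe sets of a gene, 26 of 124 named genes moved by at least the model's standard error of their relative change, among them Cep63 (-0.66), Ern1 (0.30) and Fcgr2b (2.79). For Sox4 a probe set with signals up to 13.0 passed (2.83, adjusted p = 0.0195), while its bright one gave -0.14.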
